A study of Arabidopsis thaliana with 124 samples.

Results

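The peaks of 21 transcription factors at 8 R2R3-MYB genes of Arabidopsis thaliana were compared between seedlings given abscisic acid (ABA), a hormone that plants make when water is short, and mock-treated seedlings. The genes form subgroups 22 and 4 of the family. Subgroup 22 comprises MYB44 (AT5G67300), MYB70 (AT2G23290), MYB73 (AT4G37260) and MYB77 (AT3G50060). Subgroup 4 comprises MYB3 (AT1G22640), MYB4 (AT4G38620), MYB7 (AT2G16720) and MYB32 (AT4G34990). They were taken by gene code, 8 of 27432 protein-coding genes on chromosomes 1 to 5. A peak was given to a gene when its summit, the point of highest enrichment within the peak, lay in the gene or within 2000 bp of it.

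Recombineering had placed the fluorescent protein YPet on each factor within a large cloned copy of that factor's genomic region, and chromatin was pulled down through the tag with a GFP antibody. All groups were whole Col-0 seedlings grown for 3 days in the dark, treated for 4 h with 10 µM ABA or with ethanol (mock). The tagged factors were ZAT6, a zinc finger protein, FBH3, a bHLH protein, HSFA6A, a heat shock factor, DREB2A of the AP2/ERF family, the NF-Y subunits NFYC2 and NFYB2, MYB44 and MYB3, and the MYB-related protein of AT5G04760. The larger families were NAC (RD26, ANAC102, ANAC032), homeodomain-leucine zipper or HD-ZIP (HAT22, HB7, HB6, HB5) and bZIP (GBF3, GBF2, ABF4, ABF3, ABF1). The series holds 122 libraries of tagged lines and 2 control libraries of untagged Col-0, both labelled with ABA. The 42 peak lists, 1 per factor and treatment, hold 15 to 18096 peaks, and each pools the 2 or 3 libraries of its group. A list therefore has no replicate error of its own, and without read counts its depth is unknown.

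R2R3-MYB proteins bind DNA through a pair of imperfect MYB repeats and are numerous in plants. Members of subgroup 22 are known from stress and hormone responses: MYB44 from ABA signalling and stomatal closure, MYB73 from salt stress, and MYB77 from auxin responses of roots, where it works with the auxin response factor ARF7 and the ABA receptor PYL8. Members of subgroup 4 carry a repression motif (EAR) and are known as repressors of phenylpropanoid and flavonoid genes, MYB4 for instance of a cinnamate hydroxylase gene. MYB3 and MYB44 are both factors of the series and genes studied here.

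The first comparison asked how many of the 21 factors had a peak at each gene under ABA and under mock. Most factors were found at most of these genes in both treatments. Of 166 possible pairs of a factor and a gene, 137 (82.5%) had a peak under ABA and 120 (72.3%) under mock. The peaks of the tagged MYB44 and MYB3 lines at their own genes were set apart and are not in these counts. Over all protein-coding genes the corresponding shares were 43.1% under ABA and 30.1% under mock. The median gene of the 8 had 17 factors under ABA and 16.5 under mock, while the median protein-coding gene had 9 under ABA and 5 under mock. The members' excess was present in both treatments, and no test was made of it because the lists have no replicates.

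MYB4 and MYB70 stood highest under ABA, each with 20 factors, a number that 1.67% of all genes reach. MYB77, MYB3, MYB7 and MYB32 had 17 factors each under ABA, a level reached by 18.6% of genes. MYB73 followed with 16 under ABA (reached by 23.7% of genes) and MYB44 with 13 of the 20 factors other than itself (reached by 36.8%). Under mock the order began with MYB4 at 19 factors (reached by 0.474% of genes). MYB70, MYB77 and MYB3 had 17 each under mock (3.47%), MYB73 had 16 (6.36%), MYB7 had 13 (17.3%), MYB44 had 12 (21.6%) and MYB32 had 9 (34.8%). Genes at neighbouring places in these orders differ by 0 to 3 factors, and no replicate error exists to separate them.

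**Figure D1:**
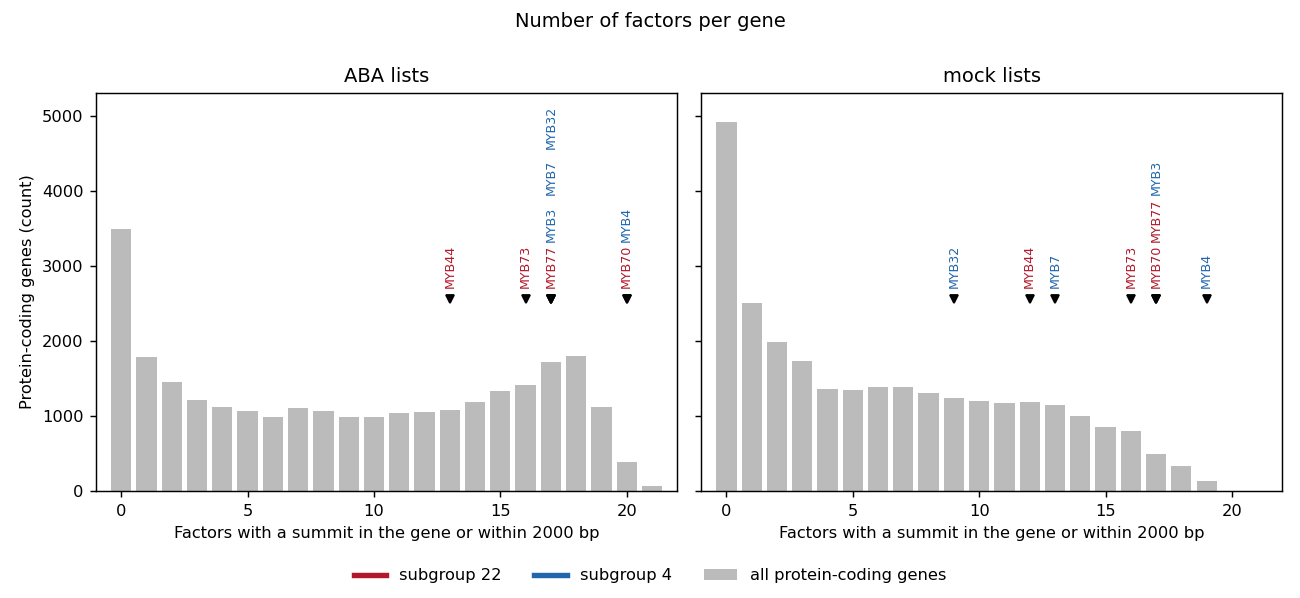
Number of tagged factors (x axis) with a summit in a protein-coding gene or within 2000 bp of it, as a count of genes (grey bars), in the ABA lists (left) and the mock lists (right). Triangles mark the 8 MYB genes, from 13 to 20 factors under ABA and from 9 to 19 under mock.

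Strength was described within each list, as the percentile of a peak's −log10 p among all peaks of its list. For each gene the best peak of every factor was taken, and the median over factors was read. MYB3 was highest under ABA, with a median percentile of 94.4, and stood at 90.5 under mock. MYB77 had 93.0 under ABA and 81.3 under mock, and MYB73 had 91.1 under ABA and 88.9 under mock. MYB44 had 84.9 under ABA and 92.0 under mock, MYB4 had 81.8 and 82.0 in the same order, and MYB70 had 80.3 under ABA and 68.6 under mock. Under ABA the strongest peaks of ABF1, ABF3, ABF4 and GBF3 near MYB44 had summits just outside the 2000 bp limit. They are therefore not in its median. The strongest GBF2 peaks near MYB44 lay outside the limit in both treatments. Within the 2000 bp limit the best peaks at MYB7 stood near the median of all genes with a factor, and those at MYB32 below it. Their medians were 54.0 under ABA and 48.1 under mock for MYB7, and 34.1 under ABA and 41.9 under mock for MYB32, against 47.4 under ABA and 47.9 under mock for all genes with a factor. The number of factors and the rank of their peaks thus gave different orders of the 8 genes.

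**Figure D2:**
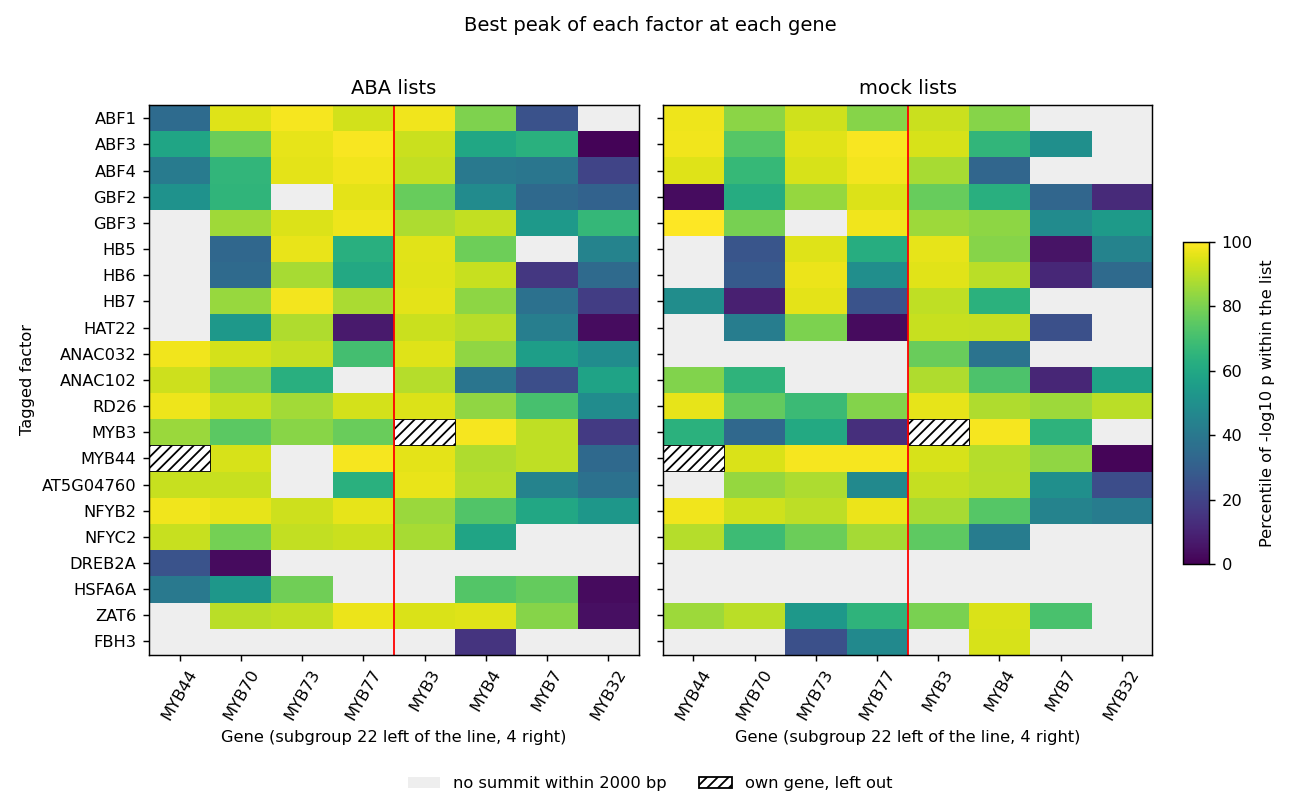
Within-list percentile of −log10 p (colour) of the best peak of each tagged factor (rows) at each of the 8 genes (columns), in the ABA lists (left) and the mock lists (right). MYB3 and MYB73 are bright over most factors, MYB32 is mostly dark, and the HSFA6A row holds 6 genes under ABA and none under mock.

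The second comparison asked whether factors were gained or lost at each gene under ABA. At the 8 genes 26 pairs were found under ABA alone and 9 under mock alone, so 74.3% of the pairs that differed were gains, compared with 91.0% over all genes. Subgroup 4 had 14 pairs under ABA alone and 1 under mock alone, and subgroup 22 had 12 and 8. Of the 9 pairs under mock alone, 6 had an overlapping ABA peak of the same factor, 3 at MYB44 and 3 at MYB73. Those 6 losses, all in subgroup 22, record where a summit was set. An overlapping mock peak was present for 2 of the 26 pairs under ABA alone. MYB32 had the largest difference, with 8 factors gained under ABA and 0 lost (exact two-sided sign test over factors, p = 0.008, Benjamini-Hochberg adjusted p = 0.158). MYB7 gained 5 and lost 1 (exact sign test, p = 0.219, adjusted p = 0.483). For the other 6 genes the exact sign test gave p of 0.250 or higher. An unadjusted p under 0.05 was reached by 3886 of 24116 genes tested, or 16.1%, and by 1 of the 8 members, MYB32. After adjustment 0 genes passed at 0.05, and the lowest adjusted p over all genes was 0.149. The test sets gains against losses over factors at even odds, and factors are not replicates of a condition. It makes no allowance for list length: the ABA lists hold 194733 peaks and the mock lists 131965.

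The comparison was repeated with lists of equal length. The longer list of each factor was shortened to the length of the other by −log10 p. The 8 genes then had 112 of 166 possible pairs under ABA and 118 under mock. The direction was thus opposite to that of the full lists, while all genes stood at 30.5% under ABA and 29.8% under mock. MYB32 then had 8 factors under ABA and 9 under mock, MYB7 had 12 and 13, MYB70 had 18 and 17, and MYB4 had 17 and 19, ABA first in each case.

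MYB44 lies on chromosome 5 beside a region of wide peaks. Its 15 peaks under ABA had fold enrichments of 2.12 to 11.1 (median 2.88) and its 17 peaks under mock had 1.83 to 8.27 (median 3.15), with −log10 p from 18.5 to 232 under ABA and from 16.8 to 194 under mock. NFYB2, a subunit of the trimeric NF-Y complex that reads CCAAT boxes, peaked 166 bp below the gene's lower-coordinate end in both treatments, at percentiles of 97.9 under ABA and 97.7 under mock. Under mock GBF3 stood higher in its own list, at 99.7. The GBF3 peak over this region under ABA had its summit 2227 bp below the gene, outside the limit. It ranked 1 of 16320 peaks, with a −log10 p of 142. NFYC2, the other subunit tagged here, peaked 112 bp below that end under ABA and 129 bp below it under mock. Strand is not given in the gene table used, so the lower-coordinate side is not called upstream or downstream.

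The ABF proteins, bZIP factors of the core ABA response, had their strongest summits at different places in the 2 treatments. Under ABA they lay 2224 bp (ABF3), 2229 bp (ABF1) and 2242 bp (ABF4) below MYB44, just outside the 2000 bp limit, at percentiles of 97.1, 98.5 and 96.2. Those ABA peaks were 4918, 4560 and 4830 bp wide, so a single summit stood for a broad stretch. Under mock the summits lay 202 bp (ABF3), 161 bp (ABF1) and 158 bp (ABF4) below the gene, at percentiles of 97.7, 97.4 and 95.0. GBF3, HB7 and ZAT6 were counted as lost at MYB44 under ABA, yet each had an overlapping ABA peak with its summit 2227, 4021 and 4005 bp below the gene. Counting any base of a peak in place of its summit gave MYB44 19 factors under ABA and 17 under mock. Losses at this gene therefore record where a summit was set, not the absence of a peak.

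The gains at MYB44 were ANAC032, the MYB-related factor AT5G04760, DREB2A and HSFA6A. AT5G04760 had an overlapping mock peak, with its summit 4016 bp below the gene. ANAC032, a NAC protein of stress and senescence, had a −log10 p of 88.8 there under ABA, percentile 97.9, inside the stretch that MYB44 shares with the neighbouring gene AT5G67310. DREB2A and HSFA6A, factors of dehydration and heat responses, had weaker peaks under ABA at −log10 p of 18.5 and 22.6.

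MYB70 was bound at the higher-coordinate side. Under ABA 31 of its 37 peaks and under mock 27 of 27 had their summits there. The fold enrichments were 1.77 to 10.7 (median 2.47) under ABA and 1.89 to 7.43 (median 2.55) under mock. Most of the summits fell at a pair of sites, a site being a run of summits at most 100 bp apart with at least 10 factors in either treatment. The site nearer to the gene, chr2:9906584-9906684 (TAIR10, summit positions), had its median summit 606 bp beyond the gene and held 18 factors under ABA and 16 under mock. Farther out, chr2:9907677-9907819 at 1676 bp held 13 factors under ABA and 11 under mock. At the nearer site NFYB2 had the highest percentile under ABA, 96.4, and stood at 92.7 under mock, where MYB44 was highest. MYB44 had near-equal peaks at both sites, at percentiles of 91.3 (nearer) and 94.1 (farther) under ABA and 94.5 (nearer) and 91.8 (farther) under mock. ANAC032, DREB2A and HSFA6A were found at MYB70 under ABA alone, and FBH3 in neither list. The DREB2A peak was near its list's lower limit, at a −log10 p of 16.1 and a percentile of 2.77. At −log10 p of at least 32 MYB70 had 16 factors under ABA (reached by 7.12% of genes) and 12 under mock (5.54%).

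MYB73 had 17 peaks under ABA, 15 of them below the gene's lower end, and 16 under mock, all on that side. Their −log10 p ran from 19.0 to 188 (median 76.2) under ABA and from 17.4 to 146 (median 67.3) under mock. The main site, chr4:17539778-17540008, had a median summit 577 bp below the gene and held 15 factors under ABA and 16 under mock. The families were set in an order along it. The NF-Y subunits had summits at a median of 81.5 bp below the site's middle and the bZIP proteins 47.5 bp below it. The NAC, MYB, MYB-related and ZAT6 summits lay within 20.0 bp of the middle by their medians, and the HD-ZIP summits lay at a median of 75.0 bp above it, nearest to the gene. The spacing is a description of 31 summits, and no strand or sequence was used.

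A further site lay just outside the limit at MYB73, chr4:17537999-17538138, with a median summit 2458 bp below the gene and 8 factors under ABA and 13 under mock. It touches the count of losses. GBF2, MYB44 and AT5G04760 were found at MYB73 under mock alone, but their ABA peaks, 4017, 5554 and 5343 bp wide, covered the region with summits 2487, 2421 and 2424 bp below the gene. GBF3 was counted as a gain there by the reverse case: its ABA peak had a summit 647 bp below the gene and a −log10 p of 132, and its mock peak a summit 2465 bp below the gene and a −log10 p of 133. ANAC032, ANAC102 and HSFA6A had no overlapping mock peak at MYB73, with −log10 p under ABA of 67.4, 35.2 and 41.6. FBH3 was found under mock alone, at −log10 p 17.4.

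MYB77, the gene of the auxin-linked member, had its peaks at the higher-coordinate end and beyond it. The fold enrichments of its 28 peaks under ABA were 1.82 to 10.6 (median 3.05) and those of its 25 peaks under mock 1.82 to 8.08 (median 2.72). At chr3:18559249-18559470, which straddles the gene's end, 14 factors had a summit under ABA and 11 under mock. The site chr3:18560765-18560867, 1490 bp beyond the gene, held 14 factors in each treatment. ABF3 and ABF4 were high in their lists at the gene's end, at percentiles of 98.9 and 97.8 under ABA and 99.0 and 98.1 under mock. The MYB44 protein was high at the outer site, as described below. ANAC032 was the factor found under ABA alone and FBH3 the one found under mock alone.

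Among the subgroup 4 genes MYB3 was the one with no gain and no loss: the same 17 factors were found under ABA and under mock, and DREB2A, HSFA6A and FBH3 in neither. That count rests on the distance used, since HSFA6A and DREB2A had ABA peaks with summits 2063 and 2104 bp beyond the gene. Counting any base of a peak gave MYB3 19 factors under ABA and 17 under mock. Its main site, chr1:8005347-8005491, had a median summit 648 bp below the gene and held 18 factors under ABA, the tagged MYB3 protein included, and 17 under mock. Of the 41710 runs of summits over all lists, with any number of factors, 0.54% hold at least 17 under mock. Under ABA 3.18% hold at least 17, the number at this site without the tagged MYB3 protein. Only 8004 of the runs hold at least 10 factors, as a site must. Fold enrichments over the gene's 26 peaks under ABA were 1.89 to 8.21 (median 3.16), and over its 27 peaks under mock 1.82 to 6.49 (median 2.98). All 5 bZIP proteins, all 4 HD-ZIP proteins and all 3 NAC proteins met within 144 bp there. A weaker site 1387 bp beyond the gene's higher end held 8 factors under ABA and 9 under mock. At a stricter −log10 p of 32 the gene kept a count of 17 factors in both treatments, which 4.33% of genes reached under ABA and 0.0838% under mock. Within 500 bp it had 1 factor in each treatment, a count that 74.2% of genes reached under ABA and 66.9% under mock.

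MYB4, a repressor of phenylpropanoid genes, had the most peaks of the 8, 49 under ABA and 44 under mock. Fold enrichments ran from 1.83 to 6.32 (median 2.68) under ABA and from 1.96 to 4.73 (median 2.77) under mock. Its outer site, chr4:18055592-18055684, lay 580 bp beyond the higher-coordinate end and held 20 factors under ABA and 19 under mock within 92 bp. As many factors were held by 0.21% of all runs of summits under ABA and 0.08% under mock. A second site, chr4:18053496-18053597, lay inside the gene, 187 bp from its lower end, with 17 factors under ABA and 16 under mock. HSFA6A was gained there under ABA with a −log10 p of 37.6 and a percentile of 73.4, and nothing was lost. FBH3 peaked at MYB4 in both lists, the single member where it did so, at a percentile of 14.95 of its 194 peaks under ABA and 93.8 of its 1084 peaks under mock.

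Within the 2000 bp limit MYB7 was bound mainly inside the gene. Of its peaks 19 of 27 under ABA and 14 of 17 under mock had their summits within it. The site chr2:7256593-7256734, 1145 bp from the lower end, held 17 factors under ABA and 12 under mock. Fold enrichments were 1.86 to 5.19 (median 2.30) under ABA and 1.96 to 3.41 (median 2.33) under mock, and −log10 p had medians of 29.5 under ABA and 27.7 under mock. ABF1, ABF4, HB7, ANAC032 and HSFA6A were found under ABA alone, with −log10 p of 22.9 to 40.2. HB5 was found under mock alone, at 17.3. A site just outside the limit, chr2:7258867-7259196, 2222 bp beyond the gene, held 18 factors under ABA and 15 under mock. ABF1, ABF4 and HB7 each had a mock peak there, 2060, 2052 and 2250 bp beyond the gene. They had ABA peaks there too, 2056, 2114 and 2262 bp beyond it. These mock peaks did not overlap the ABA peaks counted at MYB7, so the gains hold within the 2000 bp limit and not beyond it. HB5, found under mock alone, had an ABA peak at the outer site, 2258 bp beyond the gene, with a −log10 p of 44.5. The outer site held 33 summits, against 29 at the site inside the gene. Under ABA GBF3, ABF1 and NFYB2 had −log10 p of 123, 72.4 and 118 at the outer site, against 61.4, 22.9 and 62.4 within the limit. HSFA6A and ZAT6 went the other way, at 23.9 and 59.6 at the outer site against 40.2 and 66.4 within the limit. Within 1000 bp of MYB7 the counts were unchanged, at 17 factors under ABA and 13 under mock.

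MYB32 had the lowest median percentile of best peaks among the 8 genes in both treatments, as given above. Its 22 peaks under ABA had −log10 p of 16.2 to 81.3 (median 26.3) and its 10 peaks under mock 16.3 to 59.4 (median 27.7). The 8 factors found under ABA alone were ABF3, ABF4, HB7, HAT22, ANAC032, MYB3, HSFA6A and ZAT6. Their best peaks had −log10 p of 16.2 to 29.7 with a median of 18.0, close to the lists' lower limit of 16. None of the 8 overlapped a mock peak of the same factor. Farther out, ABF3, ABF4, HB7, HAT22 and MYB3 had mock peaks with summits 2163 to 4520 bp from the gene. Within 5000 bp MYB32 had 19 factors under ABA and 15 under mock. As at MYB44, whose only site lay 3998 bp below that gene, no site of at least 10 factors was formed in the window of MYB32. Its summits were spread from 1702 bp below the gene, within the neighbouring gene AT4G34980, to 1702 bp beyond it. The highest percentile was 66.5 under ABA, by GBF3 1487 bp below the gene, and 89.5 under mock, by RD26 inside the gene. At −log10 p of at least 32 MYB32 had 3 factors under ABA and 3 under mock.

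**Figure D3:**
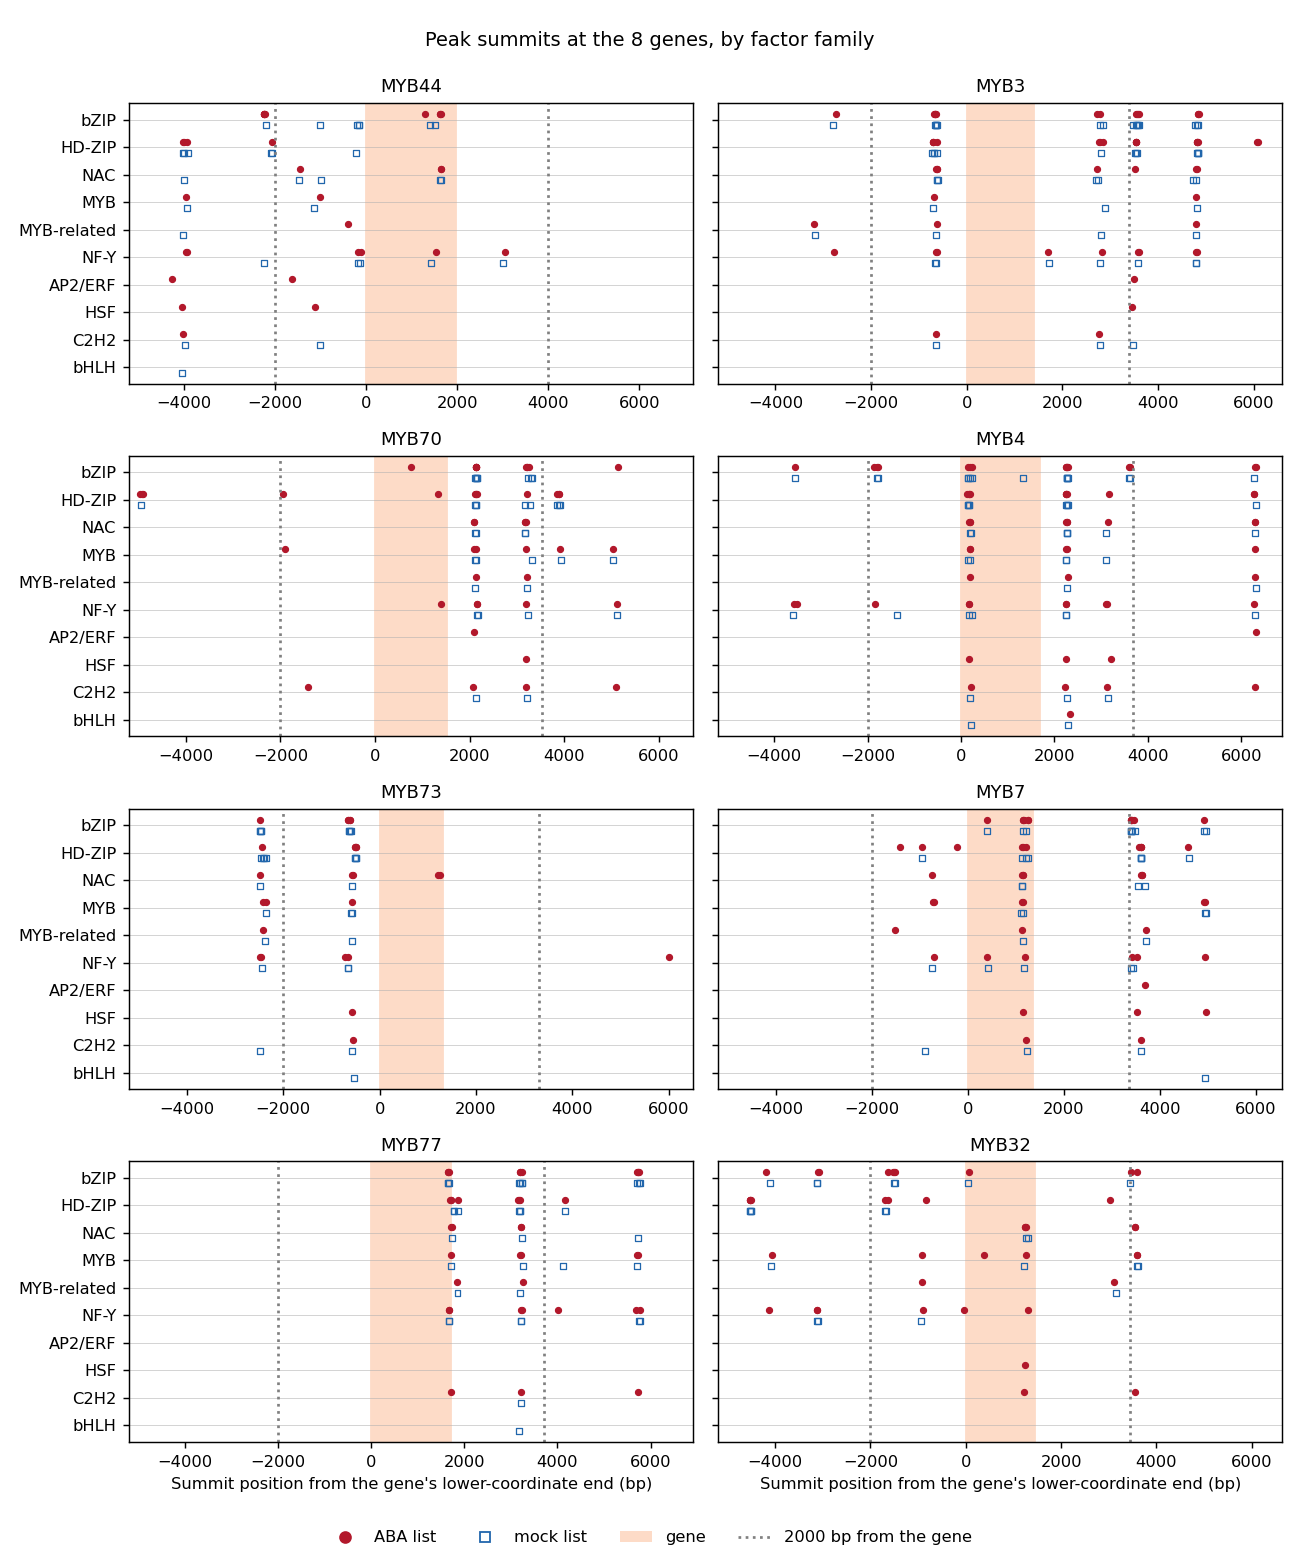
Positions of peak summits at the 8 genes, in bp from the gene's lower-coordinate end (x axis), by factor family (rows), with ABA lists as filled circles above and mock lists as open squares below. The shaded box is the gene and dotted lines mark 2000 bp from it. Summits of several families fall on the same narrow sites at MYB70, MYB73, MYB77, MYB3, MYB4 and MYB7, and are spread at MYB32. Neither MYB44 nor MYB32 has a site of at least 10 factors between the dotted lines.

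Seen from the factors, presence at the 8 genes was read against each list's share of all genes. Among the bZIP proteins, ABF1 was at 7 of 8 genes under ABA (41.9% of all genes) and 6 under mock (14.6%), and ABF3 at 8 under ABA (53.9%) and 7 under mock (45.1%). ABF4 was at 8 under ABA (43.4%) and 6 under mock (33.4%). GBF2, which reads the G-box, was at 7 under ABA (50.1%) and 8 under mock (48.7%), and GBF3 at 7 in each treatment (65.8% of all genes under ABA and 61.8% under mock). ABF1 at MYB32 was missing from both lists.

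The HD-ZIP proteins were at 6 or 7 of the genes in every list. HB5 was at 6 under ABA (44.5%) and 7 under mock (46.0%), HB6 at 7 in each (53.0% under ABA and 46.0% under mock), HB7 at 7 under ABA (61.1%) and 6 under mock (19.1%), and HAT22 at 7 under ABA (42.9%) and 6 under mock (34.9%). HB5, HB6 and HAT22 were absent from MYB44 in both treatments by the summit rule, although each had peaks with summits 2069 to 4014 bp below it.

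Among the NAC proteins ANAC032 differed most between treatments. It was at all 8 genes under ABA (39.3% of all genes) and at 2, MYB3 and MYB4, under mock (4.58%). Its ABA list holds 7977 peaks and its mock list 801. RD26, a NAC protein of dehydration responses, was at all 8 genes in both treatments (55.9% under ABA and 37.5% under mock), with best peaks at percentiles of 48.7 to 97.5 under ABA and 68.3 to 96.5 under mock. ANAC102 was at 7 under ABA (25.2%) and 6 under mock (15.5%).

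NFYB2 was, like RD26, at all 8 genes in both treatments (74.0% of all genes under ABA and 65.7% under mock), and NFYC2 at 6 in each (43.4% under ABA and 32.4% under mock), missing from MYB7 and MYB32. Near MYB7 and MYB32 NFYC2 had peaks in both treatments with summits outside the 2000 bp limit. The MYB-related factor AT5G04760 was at 7 in each treatment (53.6% under ABA and 45.4% under mock), and ZAT6 at 7 in each (52.6% under ABA and 24.0% under mock). HSFA6A was at 6 genes under ABA (11.1%) and 0 under mock (0.27%), and DREB2A at 2 under ABA (9.14%) and 0 under mock (0.0838%). The mock lists of these last factors hold 32 and 15 peaks, so their absence under mock describes very short lists. FBH3, which is known from flowering and stomatal opening, went the other way, with 1 gene under ABA (1.23%) and 3 under mock (6.5%).

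The third comparison concerned the MYB proteins themselves, that is, whether MYB44 and MYB3 bind genes of their own subgroups. The MYB3 protein was at all 7 other genes under ABA (30.8% of all genes) and at 6 under mock (17.5%), with MYB32 found under ABA alone. Its highest percentile in the rule's window was at MYB4, its subgroup relative. At the outer MYB4 site it had a fold enrichment of 3.03 and a −log10 p of 67.4 under ABA, rank 83 of 6213 peaks, and 3.08 and 63.8 under mock, rank 43 of 3405. At the site inside MYB4 it ranked 114 in each list, with −log10 p of 65.2 under ABA and 52.8 under mock. At the other genes of subgroup 4 its best percentile was 90.6 under ABA and 64.5 under mock for MYB7, and 17.1 under ABA for MYB32. At the subgroup 22 genes it reached percentiles of 74.8 to 84.9 under ABA and 13.5 to 63.9 under mock.

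Outside the window the MYB3 protein had one of the strongest peaks of its whole list between MYB7 and the next gene. The summit lay 3571 bp beyond the higher end of MYB7 under ABA and 3582 bp beyond it under mock. The fold enrichments were 3.64 under ABA and 3.61 under mock, and the ranks were 3 of 6213 peaks under ABA and 4 of 3405 under mock. This summit lies nearer to the neighbouring gene AT2G16730, within 2000 bp of it, so by the rule used here the peak belongs to that gene and not to MYB7. The MYB44 protein peaked at the same place, with −log10 p of 98.6 under ABA (rank 64 of 11479) and 82.9 under mock (rank 74 of 7154). At MYB32 the MYB3 protein also had a higher peak beyond the window than within it, 2151 bp beyond the gene under ABA (−log10 p 54.0, percentile 94.6) and 2163 bp beyond it under mock (42.7, percentile 90.8). Peaks of like rank lay outside the window at subgroup 22 genes too. The MYB3 protein had one 3943 bp below MYB44 under ABA (percentile 95.2) and 3937 bp below it under mock (84.3), and one 2357 bp below MYB73 under ABA (93.4) and 2362 bp below it under mock (86.6).

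The MYB44 protein was at 6 of the 7 other genes under ABA (52.0% of all genes) and at all 7 under mock (34.0%). Its highest peak in the window under ABA was at MYB77, 1489 bp beyond the gene, with a fold enrichment of 3.58, a −log10 p of 93.4 and rank 176 of 11479. Under mock that peak had 3.57, 81.4 and rank 86 of 7154. At MYB73 a wide ABA peak with its summit outside the window had a −log10 p of 94.5, rank 143, and the mock peak, inside the window, had 80.4. Its percentiles at MYB3 were 96.0 under ABA and 94.0 under mock, and at MYB4 88.2 and 88.7, ABA first. At MYB32 it was low, at 34.1 under ABA and 1.38 under mock. High peaks of the MYB44 protein were thus found in both subgroups, at MYB70, MYB77 and MYB3.

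At its own gene each tagged line had a peak of exceptional width, which was set apart. The MYB44 line had a peak of 15103 bp over MYB44 under ABA (fold enrichment 3.67, −log10 p 96.5) and 17393 bp under mock (3.65 and 83.9), the widest of its list in both treatments, where the median widths were 960 bp under ABA and 976.5 bp under mock. The MYB3 line had 10218 bp over MYB3 under ABA (3.34 and 77.3, rank 18) and 9053 bp under mock (3.40 and 73.5, rank 8), each among the 3 widest of its list, with list medians of 1081 bp under ABA and 1039 bp under mock. In a recombineered line the tagged gene lies on an added cloned copy of its region. Extra copies of that region and binding of the factor to its own gene cannot be told apart in these lists.

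**Figure D4:**
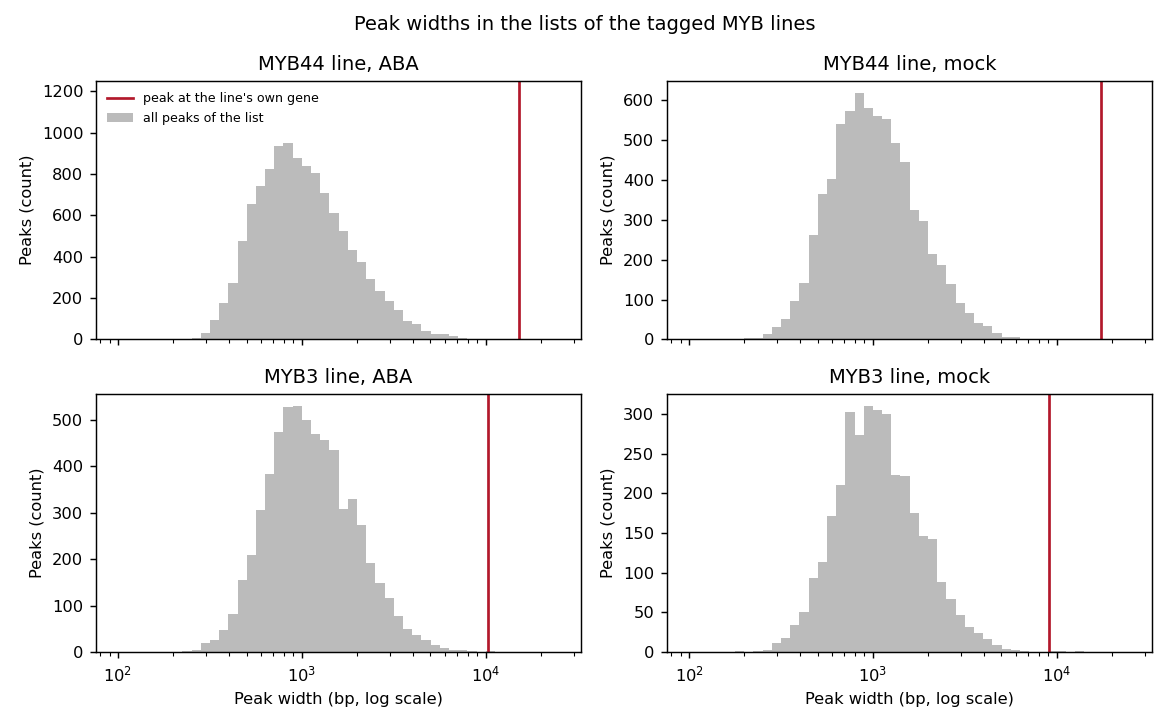
Width of every peak (x axis, bp, log scale) in the lists of the MYB44 line (top) and the MYB3 line (bottom), under ABA (left) and mock (right), as counts of peaks in grey. The red line is the peak at the line's own gene, 15103 and 17393 bp wide for MYB44 and 10218 and 9053 bp wide for MYB3, ABA first.

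The overlap of factors was about the same within subgroups as between them. The share of factors held in common, out of all factors at either gene, had a median of 0.795 over the 12 pairs within subgroups and 0.789 over the 16 pairs between them under ABA, and 0.688 within and 0.649 between under mock. MYB70 and MYB4, of different subgroups, shared 19 factors of 20 at each under ABA and 17 under mock. MYB44 and MYB77, of the same subgroup, shared 10 under ABA, out of 13 at MYB44 and 17 at MYB77. The pairs share lists and genes, so no test was made. Most factors were found at most of these genes, so a large overlap follows in part from the counts alone. The same counts limit how far pairs within and between subgroups can differ. The shares were not compared with those of other genes, so they cannot show whether the subgroups matter for the overlap.

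The gene whose pattern over the 42 lists was most like that of each member was found by the Pearson correlation of within-list percentiles, with 0 where a list had no summit, leaving out genes that share a summit with the member. The correlation was 0.94 for MYB3 with AT2G23440, 0.93 for MYB77 with AT3G19540 and 0.92 for MYB70 with AGL44 (AT2G14210). It was 0.86 for MYB7 with SEC1B (AT4G12120), 0.84 for MYB4 with AUF1 (AT1G78100) and 0.84 for MYB32 with RGL1 (AT1G66350). It was lowest for MYB73 with ARR9 (AT3G57040), at 0.73, and for MYB44 with TRX3 (AT5G42980), at 0.70. None of these is another member. These are the highest of all genes, and the lists share a factor's length, so the values only describe likeness.

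Other R2R3-MYB genes were taken as a list of 29 from other subgroups. Their median was 16 factors under ABA and 9 under mock, so they lay near the 8 members under ABA (17) and below them under mock (16.5). Of the 29, 24 had more factors under ABA and 1 had more under mock, 11 had an unadjusted sign test p under 0.05 and 0 passed after adjustment. The highest under ABA were MYB96, MYB90 and MYB6 with 19 factors each, against 17, 12 and 12 under mock. The lowest were MYB123 and MYB29 with 0 factors in both treatments and MYB111 with 4 under ABA and 5 under mock. Among known partners of the members, the co-repressor gene TPL had 21 factors under ABA and 19 under mock, PYL8 had 16 and 14, and ARF7 had 14 and 12, ABA first. The bHLH partners of subgroup 4 were lower, with 8 and 7 factors for TT8, 7 and 2 for GL3 and 1 and 4 for EGL3, ABA first. None of the 6 partner genes had a sign test p under 0.05.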

How the data were processed

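ChIP-seq peaks of 21 YPet-tagged factors, with and without ABA, were taken from 42 deposited narrowPeak lists. TAIR10 as the build, Bowtie 0.12.7 and MACS2 2.0.10 are named in the submitters' processing notes, with no roles given in the sources used here. Per the file names and peak names, the authors pooled the libraries of a group and kept peaks at a −log10 p of 16, and 3 lists start above 17. Fold enrichment, a ratio the authors give for each peak, and −log10 p, also deposited by the authors, served only for describing and ranking inside 1 list. Summit positions are likewise the authors' own. Whether the 2 ABA-labelled control libraries served the mock lists is not given.

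Protein-coding genes came from a RefSeq table of assembly TAIR10.1, without strand, and none of its coordinates is printed. Shifting all summits by 50 bp to either side raised the share inside genes to 34.9%, from 33.8% without a shift, so peaks and table share positions. Coordinates are 1-based summit positions on TAIR10. Sites were runs of summits at most 100 bp apart with at least 10 factors in either treatment. Of the 404 peaks at the members 196 also lie within 2000 bp of another gene.

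Factors gained and lost under ABA were compared per gene by an exact two-sided sign test with Benjamini-Hochberg adjustment over all genes (scipy 1.17.1, pandas 2.3.3), tested on simulated data. The members and lists were chosen with earlier results of these data known. The named genes are the 8 members, every factor with a peak at one, the single most alike gene of each, and the 3 highest and 3 lowest of the other R2R3-MYB list. Distances, thresholds and list lengths were varied as given at the end. No genome sequence was used here, so motif searches and an upstream-only count were not run.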

Additional observations from a re-analysis of the deposited data

How the results depend on the processing

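The number of pairs at the 8 genes stayed within 1.5 times of its value, with more pairs under ABA than under mock, within 1000 bp, within 5000 bp (chosen after seeing the data), with the nearest gene only, with any base of a peak, at a −log10 p of 32, without DREB2A, HSFA6A and FBH3, and with own-gene peaks counted. With lists of equal length it turned to 112 under ABA and 118 under mock. Within 500 bp it was 73 of 166 possible pairs under ABA and 57 under mock, against 28.2% and 19.1% of pairs over all genes, ABA first. MYB70 then had 3 factors under ABA and 0 under mock, MYB73 had 4 and 2, and MYB3 had 1 and 1. No member and no other gene passed the adjusted sign test under any of the alternatives run. Of the counts per gene, MYB32 moved most often. It had 11 factors under ABA and 5 under mock within 1000 bp, 8 and 4 with the nearest gene only, and 3 and 3 at a −log10 p of 32, ABA first. Within 5000 bp it had 19 under ABA and 15 under mock. The upstream-only count was not run, since the gene table gives no strand. No paired analysis was possible because each list pools its replicates, and for the same reason no replicate could be left out. Unknown read depth limits every absence: a missing peak was not called at this depth.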
